A study of Homo sapiens with 12 samples.

Results

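This account follows 42 genes of ribosome biogenesis through 4 human lung cancer cell lines in 3 states: tumor-initiating cells with PRKCI knocked down (knockdown TICs), tumor-initiating cells (TICs) and parental cells. The genes are subunits and cofactors of RNA polymerase I together with nucleolar and ribosome assembly factors, taken by name from the deposited table of read counts. All 42 of 42 symbols were among the 22506 genes of the table, and all 42 were among the 14008 genes with enough reads to be tested. The labels name the lines H1703, H1299, CHAGO and CALU, and every line gave 1 library per state, so that each state had 4 libraries and the lines served as its replicates (n = 4). TICs are those tumor cells that can start a new tumor. Parental cells are given as adherent in the labels, which say nothing of how the TICs were grown, so state and growth condition cannot be told apart. PRKCI encodes an atypical protein kinase C, the iota isoform. How the knockdown was made is not given in the sources used here, and parental cells with the knockdown, which the design text names, were not analysed here.

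Ribosomes are built in the nucleolus. RNA polymerase I transcribes the ribosomal DNA repeats into a long precursor, small nucleolar ribonucleoproteins (snoRNPs) guide the chemical modification of that precursor, and large assemblies of processing factors fold and cleave it while ribosomal proteins join. The genes for this machinery are transcribed by RNA polymerase II, are often expressed together, and are known as targets of MYC in growing cells.

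The 12 libraries held 21.2 to 36.1 M counted reads (M, mega) in H1703 and H1299 and 63.8 to 91.8 M in CHAGO and CALU, so that depth differed by line rather than by state. PRKCI was lower in the knockdown TICs than in the TICs of each line. In that order it had 58.1 and 342 CPM (counts scaled to the library total and its TMM factor) in H1703. It had 25.8 and 199 CPM in H1299, 23.1 and 606 CPM in CHAGO, and 41.4 and 236 CPM in CALU. The series title names lung squamous cell carcinoma. Of its defining markers, KRT5 reached at most 2.51 CPM in any library, and TP63 lay between 2.73 and 44.9 CPM in CHAGO and CALU and at most at 0.22 CPM in H1703 and H1299. The 8 epithelial and lung cancer markers, KRT5 and TP63 included, summed to between 1451 and 1984 CPM in CHAGO and between 144 and 361 CPM in CALU. Their sum was at most 1.74 CPM in H1703 and 28.0 CPM in H1299. The summed level of 5 leukocyte markers was at most 4.08 CPM in any library, with CD3E at 0 in all 12. The 5 fibroblast markers summed to 363 CPM in knockdown TICs, 1455 CPM in TICs and 617 CPM in parental cells of CALU, most of it the collagen gene COL1A1 (300.2, 1332 and 547 CPM), and to at most 37.9 CPM in the libraries of the other lines. The 4 endothelial markers summed to 18.1 CPM in knockdown TICs, 47.2 CPM in TICs and 28.8 CPM in parental cells of CALU, where CDH5 was at 0 and PECAM1 had 11.3, 44.7 and 2.58 CPM, and to at most 3.41 CPM elsewhere. These markers thus differed between the states of CALU, and their part in the differences of that line was not tested. Without CALU the median log2 fold change of the 42 genes was −0.64 in TICs over parental cells, 0.30 in knockdown TICs over TICs and −0.47 in knockdown TICs over parental cells.

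The 42 genes were lower in TICs than in parental cells when taken as a list, although no gene of the list passed the test by itself. The list was chosen with earlier results of these data known, so the counts below describe it and are no independent support. The fitted log2 fold change was below 0 for 42 of 42 genes, against 51.3% of all tested genes, with a median of −0.68 for the list and −0.02 for all tested genes. None was called by edgeR's quasi-likelihood test with the line as a block and p values adjusted by Benjamini-Hochberg over the 14008 genes, with a threshold of 0.05, where 0.00714% of all genes were called lower. At an unadjusted p under 0.05, 16 of the 42 were lower, against 6.06% of all genes. That count rests in part on single lines. Counted in either direction, only 5 of the 42 had an unadjusted edgeR p under 0.05 without H1299, against 1142 of 14599 tested genes. The count was 9 without CALU, against 1113 of 13743, and 2 without the line as a block, against 339 of 14008. DESeq2 called 4 of the 42 lower (NCL, NOLC1, DKC1 and UTP20), against 1.34% of all genes. With the line's own pair of libraries compared, 15 of the 42 were lower in 4 of 4 lines, against 8.97% of all genes.

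The lines did not contribute equally to this difference. In H1299 the median log2 difference between TICs and parental cells was −1.44 and 41 of 42 genes were lower. It was −0.57 in CALU (36 lower), −0.29 in CHAGO (31 lower) and −0.29 in H1703 (26 lower). Of all 14008 tested genes, 6831 were lower in H1299, 6401 in CALU, 6804 in CHAGO and 6666 in H1703. H1299 held the lowest of the 4 differences for 27 of the 42 genes. Without H1299 the fitted median was −0.44 and 39 of 42 genes were below 0, a smaller median of the same sign. With 1 library per line and state, whether the lines differ in this response could not be tested.

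The share of all counted reads that fell on the 42 genes shows the same order of states in each line. In H1703 it was 1.37% in knockdown TICs, 1.30% in TICs and 1.60% in parental cells. H1299 gave 0.669%, 0.575% and 1.43% for the same states in that order. CHAGO gave 1.37%, 1.21% and 1.54%, and CALU gave 0.487%, 0.393% and 0.811%. The share was lowest in the TIC library and highest in the parental library of every line. NCL alone made up 0.141% to 0.765% of all reads, the most of any gene of the list, so it weighs heavily in these sums. In H1703 NCL had 0.615% in knockdown TICs, 0.628% in TICs and 0.765% in parental cells, an order unlike that of the sum.

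**Figure D1:**
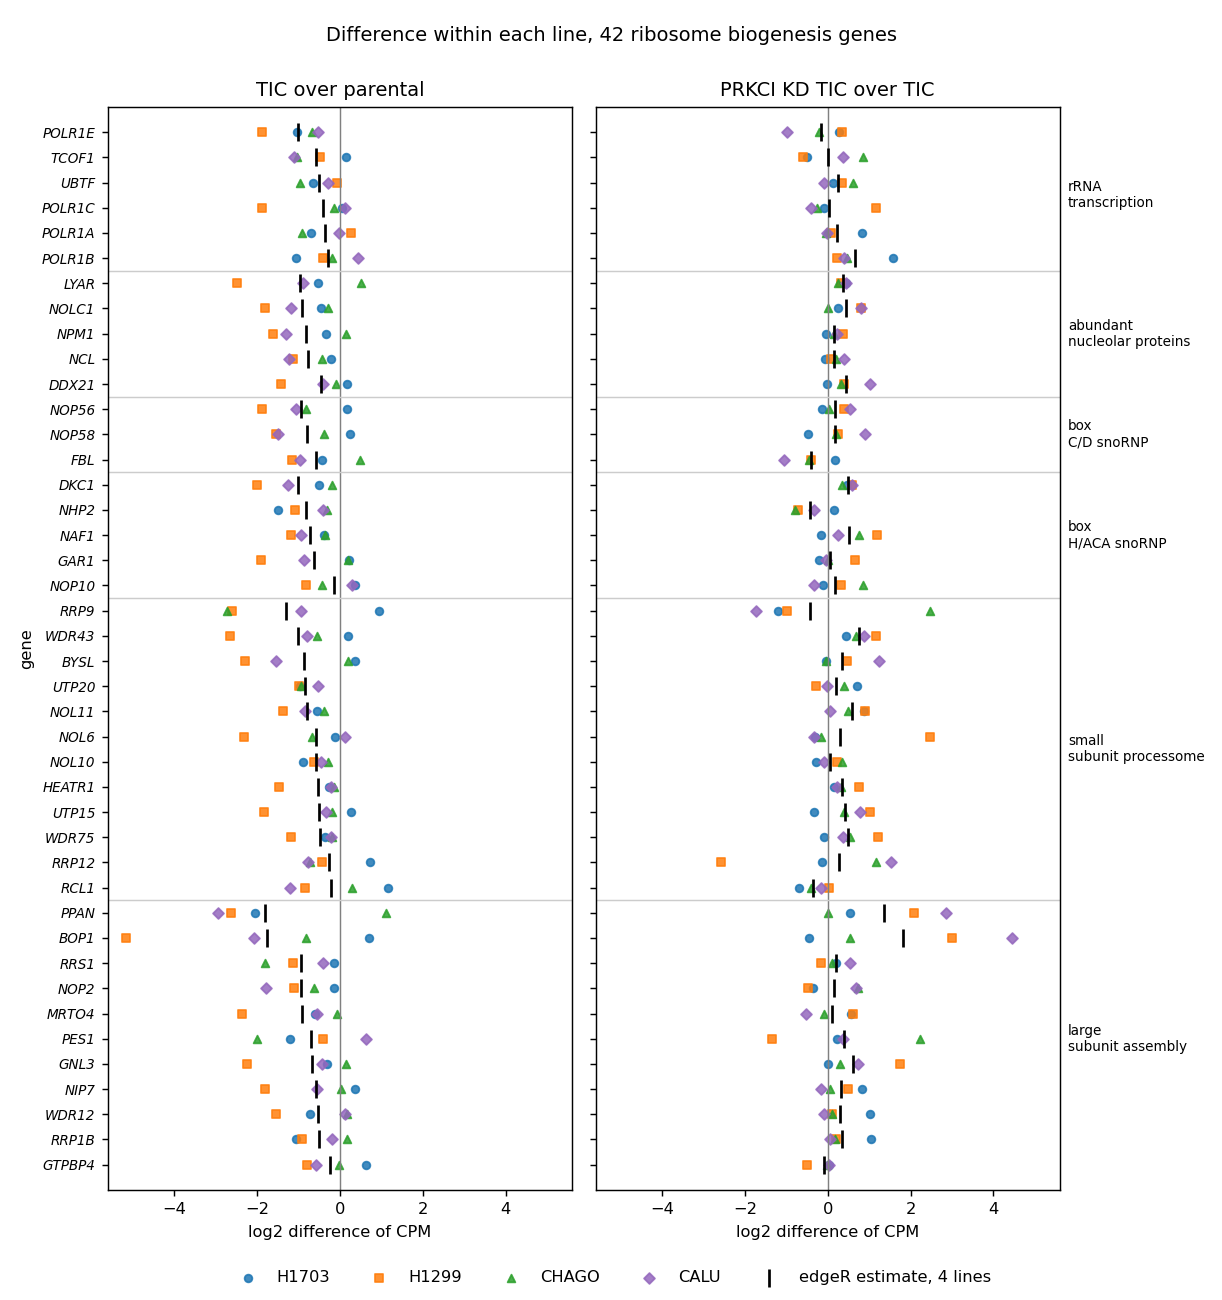
Log2 difference of CPM within each line (x axes) for the 42 genes, grouped by role (y axis), in TICs over parental cells (left) and in PRKCI knockdown TICs over TICs (right). Symbols are lines with 1 library per state, and the black bar is the edgeR estimate over 4 lines. The black bars lie below 0 for all 42 genes on the left and above 0 for 36 genes on the right, and the H1299 symbol is the lowest for 27 genes on the left.

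Promoter letters were not used to name the genes. Genes of this machinery are known as targets of MYC, however, so their E-box share is not independent of the choice. RefSeq promoter windows (build GRCh38.p14), each running from 250 bases before to 50 bases after an annotated start, were at hand for 32 of the 42 genes, and POLR1E, TCOF1, NOLC1, NOP58, NAF1, NOL10, RRP12, BOP1, RRP1B and RRS1 had no entry. The E-box CACGTG is a palindrome that MYC with MAX and several other factors bind. It was in a window of 15 of these 32 genes (46.9%), against 10.9% of 15843 protein-coding genes. The 15843 were not restricted to genes tested here. The ETS core CCGGAAG was in 31.3% of the members and 16.5% of all genes, searched on both strands. The GC box GGGCGG was in 75.0% and 64.3%, the NRF1 core CGCATGCG in 3.13% and 3.28%, and TATAAA in 3.13% and 12.4%. The E-box genes were MRTO4, WDR43, RRP9, GNL3, LYAR, GAR1, BYSL, RCL1, NOL6, DDX21, NOP2, UTP20, NOP10, FBL and PES1. A match is a run of letters in a window and not a measured binding site.

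The windows of FBL, UTP20 and WDR43 are printed because these genes are described with their values in every library and hold the E-box close to the start, and that of NCL because it is the most abundant member and holds none there. Each is 150 bases long, from 120 bases before the start to the first 30 transcribed bases, read in the direction of the gene, with the E-box in capitals. FBL lies at chr19:39846350-39846499 on the minus strand, UTP20 at chr12:101279985-101280134 on the plus strand, WDR43 at chr2:28894547-28894696 on the plus strand and NCL at chr2:231464455-231464604 on the minus strand.
FBL: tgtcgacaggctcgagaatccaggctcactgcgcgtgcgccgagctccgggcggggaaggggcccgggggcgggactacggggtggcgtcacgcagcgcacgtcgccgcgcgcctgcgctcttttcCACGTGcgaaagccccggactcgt
UTP20: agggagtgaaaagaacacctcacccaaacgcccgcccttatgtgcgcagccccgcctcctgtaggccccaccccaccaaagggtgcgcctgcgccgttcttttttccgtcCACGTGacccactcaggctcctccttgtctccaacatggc
WDR43: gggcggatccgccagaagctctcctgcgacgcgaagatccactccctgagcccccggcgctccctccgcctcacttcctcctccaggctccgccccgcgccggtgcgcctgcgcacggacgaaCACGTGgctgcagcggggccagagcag
NCL: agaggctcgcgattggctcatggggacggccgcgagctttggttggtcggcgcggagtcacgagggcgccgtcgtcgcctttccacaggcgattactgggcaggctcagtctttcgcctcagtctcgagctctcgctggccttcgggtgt
The E-box begins at base 7 of the transcript in FBL, at base 4 in WDR43 and 10 bases before the start in UTP20. The state comparisons give these values for genes with and without the letters. The median log2 fold change of TICs over parental cells was −0.70 for the 15 genes with an E-box and −0.52 for the 17 without, and that of knockdown TICs over TICs was 0.21 and 0.29.

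The 6 genes of ribosomal RNA transcription had a median log2 fold change of −0.46 in TICs over parental cells. Values per library are given here and below in CPM after TMM scaling, in the line order H1703, H1299, CHAGO and CALU, and log2 fold changes as the estimate ± its standard error. POLR1E, a subunit of RNA polymerase I, had 43.0, 30.5, 22.9 and 9.92 CPM in knockdown TICs, 35.3, 24.0, 26.3 and 19.5 CPM in TICs, and 73.2, 88.9, 41.9 and 28.4 CPM in parental cells. The parental library was the highest of its line in every case, while the ranges of the states overlapped because the lines differ. The log2 fold change was −1.02 ± 0.32 for TICs over parental cells (adjusted p = 0.266 by edgeR and 0.0556 by DESeq2) and −1.17 ± 0.32 for knockdown TICs over parental cells (adjusted p = 0.237 by edgeR and 0.0222 by DESeq2).

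UBTF, the HMG-box protein that coats active ribosomal DNA and recruits the polymerase, had 109, 43.3, 31.7 and 29.2 CPM in knockdown TICs, 99.9, 34.3, 20.7 and 31.1 CPM in TICs, and 157, 36.2, 40.7 and 38.1 CPM in parental cells. All libraries of H1703 stood above all others, and within each line the TIC library was below the parental library. That log2 fold change was −0.50 ± 0.24 (edgeR adjusted p = 0.454). POLR1A, the largest catalytic subunit, had 86.2, 50.4, 39.7 and 41.3 CPM in knockdown TICs, 48.3, 47.7, 40.9 and 41.7 CPM in TICs, and 78.1, 39.9, 76.7 and 42.5 CPM in parental cells. It was the only one of the 42 genes that was higher in TICs than in parental cells of H1299, and in CALU its 3 libraries were nearly level. POLR1B, the other large catalytic subunit, had 97.9, 49.8, 63.3 and 33.8 CPM in knockdown TICs, 32.6, 42.6, 45.6 and 25.7 CPM in TICs, and 67.8, 56.9, 52.3 and 19.0 CPM in parental cells. The knockdown library was above the TIC library in 4 of 4 lines, most of all in H1703, with a log2 fold change of 0.65 and a standard error of 0.30 (edgeR adjusted p = 0.980). POLR1C, shared with RNA polymerase III, and TCOF1, the nucleolar scaffold treacle, had log2 fold changes of −0.42 and −0.59 in TICs over parental cells, lower in 2 and 3 of 4 lines.

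The abundant nucleolar proteins gave some of the smallest unadjusted p values of the list. NCL encodes nucleolin, which binds ribosomal RNA precursors. It had 6089, 2409, 5899 and 2053 CPM in knockdown TICs, 6329, 2292, 5126 and 1553 CPM in TICs, and 7358, 5067, 6945 and 3626 CPM in parental cells. Each parental library was above the other libraries of its line, and the difference was small in H1703 and CHAGO and large in H1299 and CALU. The log2 fold change of TICs over parental cells was −0.77 ± 0.19 (adjusted p = 0.197 by edgeR and 0.0425 by DESeq2), lower in 4 of 4 lines.

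NPM1, nucleophosmin, a chaperone of the granular part of the nucleolus, had 1374, 1272, 2692 and 858 CPM in knockdown TICs, 1405, 985, 2415 and 737 CPM in TICs, and 1764, 3033, 2184 and 1834 CPM in parental cells. CHAGO ran the other way, with its parental library the lowest of its 3. The log2 fold change of TICs over parental cells was −0.82 ± 0.28 (edgeR adjusted p = 0.297), and since NPM1 has pseudogene copies in the genome its counts are uncertain. NOLC1, a chaperone of snoRNPs in the nucleolus and Cajal bodies, had 969, 202, 467 and 166 CPM in knockdown TICs, 812, 117, 466 and 94.7 CPM in TICs, and 1116, 408, 569 and 215 CPM in parental cells. The TIC library was the lowest of every line, in CHAGO together with the knockdown library. Its log2 fold change of TICs over parental cells was −0.93 ± 0.24 (adjusted p = 0.207 by edgeR and 0.0346 by DESeq2). DDX21, an RNA helicase, and LYAR, a nucleolar zinc finger protein, had log2 fold changes of −0.46 and −0.97 and were lower in 3 of 4 lines each.

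The core proteins of the box C/D snoRNPs, which methylate ribose in ribosomal RNA, had a median log2 fold change of −0.79 in TICs over parental cells. FBL, fibrillarin, the methyltransferase whose promoter is shown above, had 189, 187, 190 and 29.5 CPM in knockdown TICs, 166, 247, 260 and 61.5 CPM in TICs, and 223, 551, 186 and 119 CPM in parental cells. The knockdown libraries of H1703, H1299 and CHAGO were nearly level, and CALU stood far below them. FBL was 1 of only 6 genes of the list with a fitted log2 fold change below 0 in knockdown TICs over TICs (−0.39, standard error 0.33, edgeR adjusted p = 0.980). NOP56, a core scaffold of the particle, had 76.0, 66.5, 91.8 and 60.7 CPM in knockdown TICs, 83.4, 50.5, 90.2 and 42.01 CPM in TICs, and 74.1, 188, 161 and 87.8 CPM in parental cells. The parental library was the highest in H1299, CHAGO and CALU and the lowest in H1703, and the log2 fold change of TICs over parental cells was −0.93 ± 0.30 (edgeR adjusted p = 0.283). NOP58, the partner of NOP56, had a log2 fold change of −0.79, lower in 3 of 4 lines.

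The box H/ACA snoRNPs, which convert uridine to pseudouridine, had a median log2 fold change of −0.72 in TICs over parental cells. DKC1, dyskerin, the pseudouridine synthase, had 639, 221, 494 and 192 CPM in knockdown TICs, 461, 147, 391 and 128 CPM in TICs, and 653, 587, 450 and 304 CPM in parental cells. The TIC library was the lowest of each line. Its log2 fold change was −1.03 ± 0.28 for TICs over parental cells (adjusted p = 0.227 by edgeR and 0.0392 by DESeq2) and 0.48 ± 0.27 for knockdown TICs over TICs (edgeR adjusted p = 0.980), higher in 4 of 4 lines. The snoRNA gene SNORA56 lies within 4.19% of its exon bases on the same strand.

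NHP2, a core H/ACA protein, had 13.6, 6.36, 10.8 and 9.89 CPM in knockdown TICs, 12.3, 10.5, 18.9 and 12.6 CPM in TICs, and 34.6, 22.2, 23.5 and 16.7 CPM in parental cells. All 4 knockdown libraries were below all 4 parental libraries, and the TIC and parental ranges overlapped. The log2 fold change was −1.26 ± 0.37 for knockdown TICs over parental cells (adjusted p = 0.251 by edgeR and 0.0205 by DESeq2). The counting is not stated to use strand, and 43.8% of the NHP2 exon bases overlap RMND5B on the opposite strand, so reads of the pair cannot be told apart there. GAR1, NAF1 and NOP10, the other members of the group, had log2 fold changes of −0.62, −0.72 and −0.14 in TICs over parental cells.

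The small subunit processome cleaves the precursor that yields the small ribosomal subunit, and its 12 genes had a median log2 fold change of −0.59 in TICs over parental cells. UTP20, a large scaffold of the processome, had the smallest unadjusted p of the list in that comparison. It had 181, 91.3, 279 and 197 CPM in knockdown TICs, 112, 111, 212 and 200 CPM in TICs, and 218, 222, 405 and 289 CPM in parental cells. Each parental library was above the other libraries of its line, and the TIC differences were of like size in H1703, H1299 and CHAGO (−0.96 in H1703 and −0.93 in CHAGO on the log2 scale) and smaller in CALU (−0.53). The log2 fold change of TICs over parental cells was −0.86 ± 0.20 (adjusted p = 0.197 by edgeR and 0.0192 by DESeq2).

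WDR75, NOL11 and WDR43 belong to the part of the processome that joins the nascent transcript early. WDR75 had 176, 220, 506 and 241 CPM in knockdown TICs, 186, 94.9, 349 and 185 CPM in TICs, and 241, 215, 401 and 214 CPM in parental cells. It had the smallest unadjusted p of the list in knockdown TICs over TICs, with a log2 fold change of 0.50 and a standard error of 0.22 (edgeR adjusted p = 0.980), and H1703 did not share its direction. NOL11 had 67.4, 28.9, 66.0 and 24.7 CPM in knockdown TICs, 36.9, 15.4, 46.7 and 23.8 CPM in TICs, and 53.9, 40.1, 61.2 and 42.6 CPM in parental cells. The TIC library was the lowest of each line, with a log2 fold change of knockdown TICs over TICs of 0.59 (standard error 0.28, edgeR adjusted p = 0.980). WDR43 had 341, 68.1, 218 and 133 CPM in knockdown TICs, 249, 30.3, 135 and 72.0 CPM in TICs, and 220, 191, 200 and 126 CPM in parental cells. The knockdown library was above the TIC library in 4 of 4 lines and above the parental library in 3 of 4. Of the other 8 genes of the group, HEATR1 and NOL10 were lower in TICs in 4 of 4 lines, with log2 fold changes of −0.52 and −0.58. For HEATR1, 23.9% of the exon bases overlap LGALS8 on the opposite strand, with the same limit as for NHP2. RRP9, a protein of the processome's own snoRNP, had only 10 reads in its thinnest library, and its log2 fold change of −1.30 had a standard error of 1.05.

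The 11 genes of large subunit assembly had a median log2 fold change of −0.70 in TICs over parental cells. NOP2, a cytosine methyltransferase of ribosomal RNA, had 90.8, 20.5, 50.9 and 34.6 CPM in knockdown TICs, 117, 28.4, 30.8 and 21.5 CPM in TICs, and 130, 61.1, 47.9 and 74.4 CPM in parental cells. The TIC library was below the parental library in 4 of 4 lines, with a log2 fold change of −0.93 and a standard error of 0.33 (edgeR adjusted p = 0.318). GTPBP4, a GTPase of large subunit precursors, had 357, 37.8, 181 and 59.1 CPM in knockdown TICs, 348, 53.3, 183 and 57.6 CPM in TICs, and 226, 92.8, 186 and 85.6 CPM in parental cells. In CHAGO its 3 libraries were nearly level, and in H1703 the parental library was the lowest. For GTPBP4, 18.3% of the exon bases overlap IDI2 on the opposite strand, again with the limit given for NHP2. RRS1 and MRTO4 were lower in TICs in 4 of 4 lines, with log2 fold changes of −0.94 and −0.92. BOP1 and PPAN had the most negative fitted values of the group (−1.77 and −1.81), but BOP1 had 0 to 150 reads per library and PPAN 2 to 79, and 83.2% of the PPAN exon bases are shared with the readthrough gene PPAN-P2RY11. BOP1 forms a complex with PES1 and WDR12, whose log2 fold changes were −0.70 and −0.52.

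**Figure D2:**
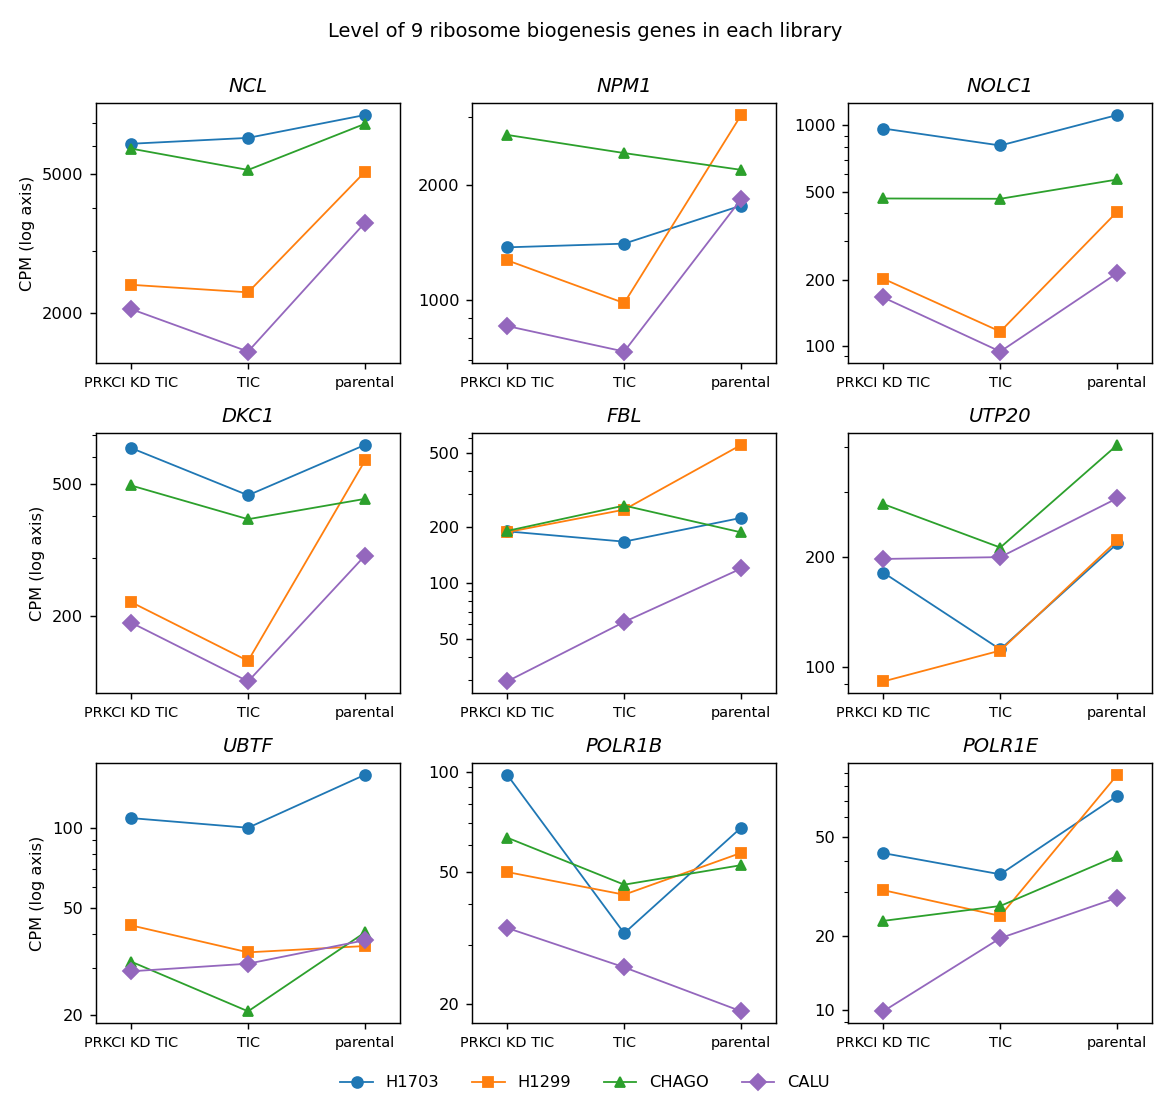
Level in CPM (log y axes) of 9 of the genes in PRKCI knockdown TICs, TICs and parental cells (x axes), with 1 point per library and a line joining the libraries of each cell line. DKC1, NOLC1 and POLR1E show parental libraries above TIC libraries in 4 of 4 lines, POLR1B shows knockdown libraries above TIC libraries in 4 of 4 lines, and UBTF shows H1703 apart from the other lines.

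The comparison of knockdown TICs with TICs shows the 42 genes with less PRKCI. In it 36 of the 42 genes had a fitted log2 fold change above 0, against 49.1% of all tested genes, with a median of 0.26 for the list and −0.01 for all genes. None was called by edgeR, where 0.00714% of all genes were called higher, and DESeq2 called none of the 42, against 0.0286% of all genes higher. At an unadjusted edgeR p under 0.05, 1 gene (WDR75) was higher, against 2.08% of all genes. A total of 9 genes were higher in 4 of 4 lines, against 7.23% of all genes. The median difference was 0.34 in H1299, 0.24 in CALU, 0.23 in CHAGO and 0.02 in H1703, where 21 genes were higher and 21 lower. Of all 14008 tested genes, 6367 were higher and 6553 lower in H1703.

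The 6 genes below 0 after the knockdown were FBL, NHP2, POLR1E, RRP9, RCL1 and GTPBP4, named after their values were seen. Both comparisons use the TIC libraries, so a TIC library that is low for a gene lowers the TIC value against parental cells and raises the knockdown value against TICs. Knockdown TICs set against parental cells do not compare a TIC level. The TIC libraries are still part of the same fit and enter its line terms and its spread. In that comparison 37 of 42 genes were below 0, against 52.9% of all genes, with a median of −0.42 for the list and −0.05 for all genes.

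No gene of the list was called by edgeR in knockdown TICs over parental cells, where 0.0143% of all genes were called lower, and 9 were lower at an unadjusted p under 0.05, against 5.29% of all genes. Counted in either direction, only 2 had an unadjusted edgeR p under 0.05 without H1299, against 1225 of 14599 tested genes. The count was 5 without CALU, against 989 of 13743, and 2 without the line as a block, against 319 of 14008. DESeq2 called POLR1E and NHP2 lower, against 0.985% of all genes. A total of 10 genes were lower in 4 of 4 lines, against 9.11% of all genes, and TCOF1, NOP58, POLR1C and MRTO4 were among them. The medians per line were −1.26 in H1299, −0.43 in CALU, −0.07 in H1703 and 0.09 in CHAGO. Without H1299 the fitted median was −0.25, with 25 genes below 0 and 17 above.

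**Figure D3:**
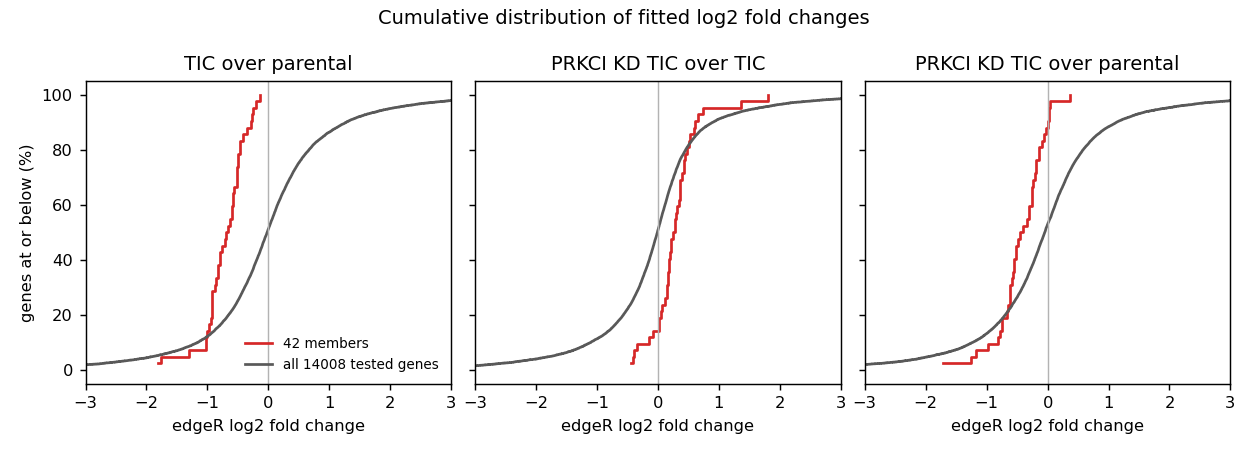
Share of genes (y axis, percent) at or below each edgeR log2 fold change (x axes, drawn from −3 to 3) for the 42 genes and for all 14008 tested genes, in 3 comparisons. Outside its ends, where the curves cross, the curve of the 42 genes lies left of that of all genes in TICs over parental cells (medians −0.68 and −0.02), right of it in knockdown TICs over TICs (0.26 and −0.01), and left of it in knockdown TICs over parental cells (−0.42 and −0.05).

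The lines differed more than the states did. An edgeR F test between the 4 lines called 26 of the 42 genes at an adjusted p under 0.05, against 45.4% of all tested genes. Without the parental libraries the F test called 26, against 5148 of 13056 tested genes. Without the knockdown libraries it called 9, against 2497 of 12990, and without the TIC libraries 4, against 2342 of 12931. With all libraries but no state term it called 18, against 6275 of 14008. A decomposition of each gene's log2 CPM put a median of 59.0% of its variance on the line, 16.1% on the state and 20.6% on the rest for the 42 genes, against 63.5%, 8.40% and 22.5% for all tested genes. NHP2 (67.1%), NOP56 (43.3%) and PPAN (39.3%) had more of their variance on the state than on the line, and the other 39 the reverse. H1703 had the highest mean level over its 3 states for 24 genes and CHAGO for 16, and CALU the lowest for 23 and H1299 for 14.

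The smallest line p values belonged to NOLC1 (edgeR adjusted p = 0.000278), UBTF (0.000691), GTPBP4 (0.000792) and NCL (0.00115). NOLC1 averaged 965 ± 152 CPM over the 3 states of H1703, 501 ± 59.5 CPM in CHAGO, 242 ± 150 CPM in H1299 and 159 ± 60.4 CPM in CALU (SD, n = 3 states). UBTF averaged 122 ± 31.0 CPM in H1703, and its other lines lay between 31.0 and 37.9 CPM without separating beyond their spread. GTPBP4 averaged 310 ± 73.2 CPM in H1703, 183 ± 2.46 CPM in CHAGO, 67.4 ± 15.8 CPM in CALU and 61.3 ± 28.4 CPM in H1299, the last pair not apart beyond their spread. NCL averaged 6592 ± 674 CPM in H1703 and 5990 ± 913 CPM in CHAGO, which overlapped, and 3256 ± 1570 CPM in H1299 and 2411 ± 1082 CPM in CALU, which overlapped too.

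**Figure D4:**
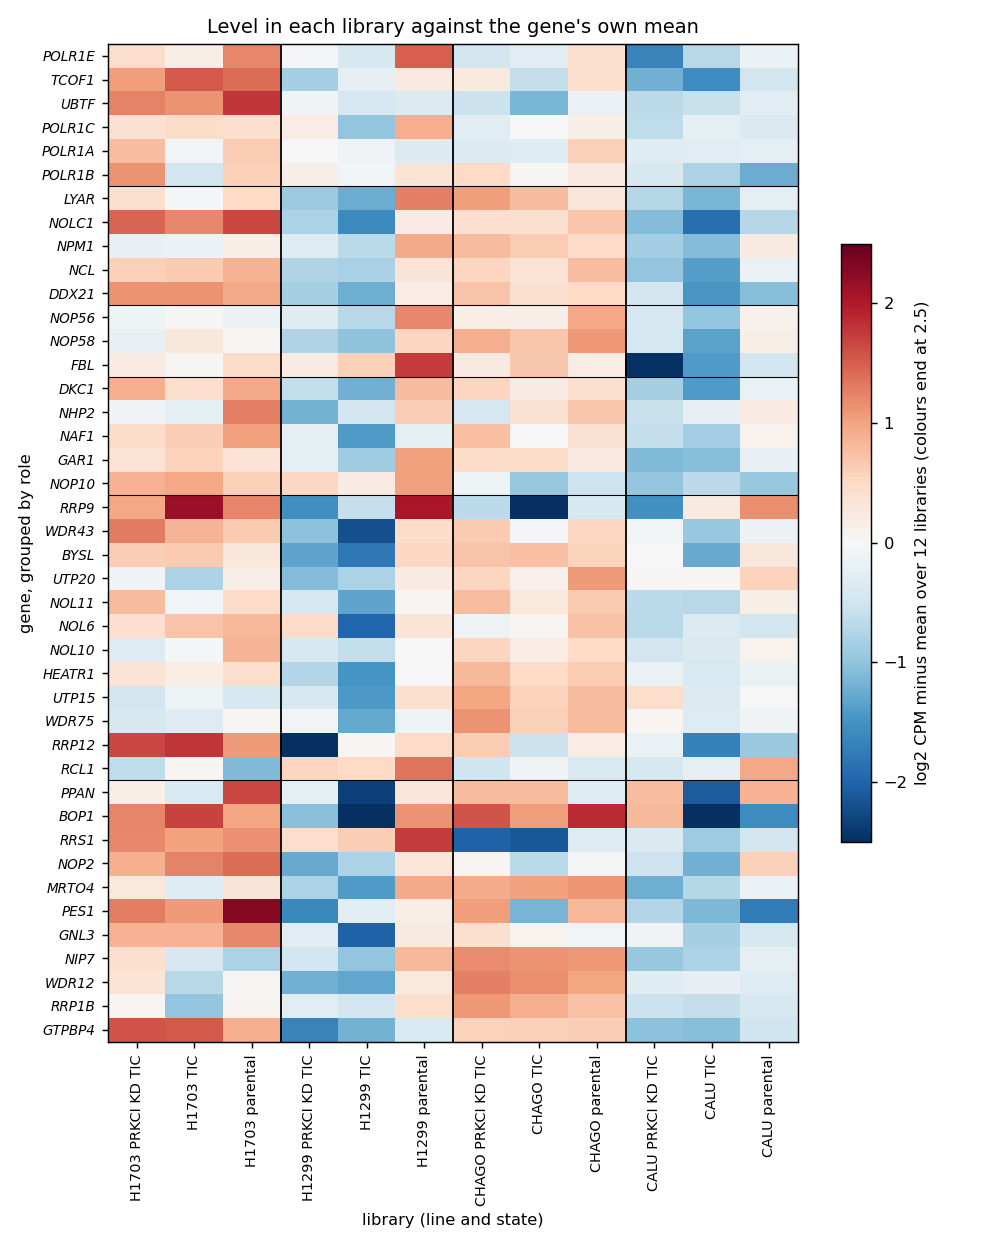
Log2 CPM of each of the 42 genes minus its own mean over 12 libraries, by library (x axis, grouped by line with knockdown TICs, TICs and parental cells from left to right) and gene (y axis, grouped by role). Libraries of H1703 and CHAGO are mostly red and those of CALU and the H1299 TICs mostly blue. The mean level was highest in H1703 for 24 genes and in CHAGO for 16.

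Levels between genes were compared per kilobase of exon, with lengths from GENCODE v29. NCL was the most abundant with a mean of 1131 CPM per kilobase over 12 libraries, followed by NPM1 with 657, FBL with 173, DKC1 with 126 and NOLC1 with 118. POLR1A, at 4.14 CPM per kilobase, and UBTF, at 9.57, lay in the lower part of the list, and PPAN (0.359) and BOP1 (0.462) at its end. The pseudogene copies of NPM1 and the readthrough overlap of PPAN, given above, make the levels of these genes uncertain. Among the genes given with their value in every library, POLR1A varied least, with a highest level 2.17 times its lowest, and FBL most, with a factor of 18.7.

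Other genes of the pathway, listed by role, were mostly below 0 in TICs over parental cells as well. Of 124 further ribosome biogenesis genes tested, 102 had a fitted log2 fold change below 0 in TICs over parental cells, against 51.3% of all tested genes, with a median of −0.47. None of them was called by edgeR, 21 were lower at an unadjusted p under 0.05 (6.06% of all genes) and DESeq2 called 7 lower (1.34% of all genes). In knockdown TICs over TICs 89 of the 124 were above 0 (49.1% of all genes), with a median of 0.18, and in knockdown TICs over parental cells 92 were below 0 (52.9% of all genes), with a median of −0.21. In TICs over parental cells the median was −0.46 for 43 further small subunit processome genes, −0.48 for 47 further large subunit genes, −0.42 for 10 snoRNP assembly genes and −0.53 for 14 RNA exosome genes, which trim precursor ends. NOL9, a polynucleotide kinase of the large subunit pathway, was lower in TICs in 4 of 4 lines (log2 fold change −1.05, standard error 0.23, adjusted p = 0.188 by edgeR and 0.00695 by DESeq2). EXOSC2, an exosome subunit, had −1.44 ± 0.40 (adjusted p = 0.232 by edgeR and 0.0235 by DESeq2).

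The other genes of the RNA polymerase I apparatus were split in direction. Of 10 such genes, 5 were below 0 and 5 above in TICs over parental cells, with a median of 0.01. Within that list CD3EAP, a polymerase I subunit also named POLR1G, had −1.40 ± 0.43, lower in 4 of 4 lines (adjusted p = 0.258 by edgeR and 0.0496 by DESeq2). The medians were −0.28 for 19 RNA polymerase III genes, −0.42 for 5 subunits shared by the 3 polymerases and −0.15 for 7 RNA polymerase II subunits. For 10 tested genes of the MYC and MAX network the median was −0.04, with 5 above 0 and 5 below. At an unadjusted edgeR p under 0.05, 1 was higher and 0 lower, against 803 and 849 of 14008 genes. In 4 of 4 lines 2 were higher (MXD1 and MXI1) and 0 lower, against 1166 and 1256 of 14008. MXD1 had 10.4, 127, 63.0 and 65.4 CPM in TICs and 3.49, 93.5, 30.9 and 29.4 CPM in parental cells. MYC had 91.0, 23.8, 36.1 and 14.4 CPM in knockdown TICs, 73.9, 19.1, 32.4 and 13.7 CPM in TICs, and 39.4, 91.6, 53.3 and 29.4 CPM in parental cells. Its TIC library was below the parental library in H1299, CHAGO and CALU and above it in H1703 (log2 fold change −0.95, standard error 0.47, edgeR adjusted p = 0.476).

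Proliferation markers were lower in TICs than in parental cells by their median in 3 of the 4 lines. Of 10 such markers, 10 had a fitted log2 fold change below 0 in TICs over parental cells, against 51.3% of all tested genes, with a median of −1.14. At an unadjusted edgeR p under 0.05, 7 of them were lower, against 6.06% of all genes. EdgeR called none lower (0.00714% of all genes) and DESeq2 called 1 lower (1.34% of all genes). No marker was at 0 reads in any library. Their summed level ranged from 1090 to 3997 CPM in knockdown TICs, from 857 to 4829 CPM in TICs and from 3049 to 5236 CPM in parental cells. By line the median difference between TICs and parental cells was −0.53 for H1703, −1.12 for H1299, 0.38 for CHAGO and −2.54 for CALU. In CHAGO 7 of the 10 markers were higher in TICs and 31 of the 42 ribosome biogenesis genes lower, with 1 library per state. Of all 14008 tested genes, 6794 were higher and 6804 lower in TICs of CHAGO. In knockdown TICs over TICs the marker median was −0.000615 and that of the 42 genes 0.26. In knockdown TICs over parental cells both lay below 0, with 10 of 10 markers below 0, a marker median of −1.13 and a median of −0.42 for the 42 genes. There 8 markers were lower at an unadjusted edgeR p under 0.05 (5.29% of all genes) and 7 were lower in 4 of 4 lines (9.11% of all genes). EdgeR called none lower (0.0143% of all genes) and DESeq2 called 2 lower (0.985% of all genes). What part the share of dividing cells has in any of these differences was not tested, and in these bulk samples fewer cells of a type and less RNA per cell cannot be told apart.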

How the data were processed

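Qiagen RNeasy and NuGEN kits are named, per the labels' protocols. CASAVA 1.4, TopHat 1.4, HTSeq 0.5.3p3 and build hg19 are named per the submitters' processing notes, with no role. The authors' deposited counts are whole numbers of reads for each gene and library. The authors' deposited mode-normalized values, a score, are the counts times 1 factor per library, rounded, and served as an alternative.

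Genes were kept with filterByExpr, scaled by TMM and fitted with edgeR 4.0.16 (R 4.3.3) quasi-likelihood, robust, with terms for state and line on all 12 libraries (6 residual degrees of freedom, common dispersion 0.489). Tests were two-sided with Benjamini-Hochberg adjustment over 14008 genes at 0.05. The labels give no separate cultures. The p values are therefore set against the spread left by the line and state terms, which is how state differences vary between lines. Standard errors are the log2 fold change over the root of F. DESeq2 1.42.0, limma 3.58.1 voom and other alternatives are in the closing section. The model was also run on counts simulated from its own fit, with state effects equal in every line. That run, whose outcome is not given here, cannot speak to effects that differ between lines.

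The line pairs the libraries: after removal of state means, the correlation across genes was 0.553 to 0.760 between libraries of 1 line (12 pairs). It was −0.495 to −0.0601 between libraries of different lines (54 pairs). Removing a state mean taken over the lines itself pushes the values between lines below 0, so their sign shows nothing.

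The 42 members and the other lists were chosen with earlier results of these data known. Values in every library are given for NCL, NPM1, FBL, DKC1, NOLC1, UBTF, POLR1A and POLR1B, the 4 members of smallest p in each of the 3 state comparisons and between lines, and the member of smallest p per role in TICs against parental cells. From other lists up to 3 genes of smallest p could be named. Of 177 further list genes, 176 were in the table. Members were read against the exon overlaps of GENCODE v29.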

Additional observations from a re-analysis of the deposited data

Results flagged for a closer look

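Of 126 groups of 4 libraries (42 genes in 3 states), 3 held a library far from the rest by Dixon's criterion, which flags about 1 group in 20 by chance. UBTF had 157 CPM in the parental library of H1703, and its other parental libraries lay between 36.2 and 40.7 CPM. FBL had 29.5 CPM in the knockdown TICs of CALU, and its other knockdown libraries lay between 187 and 190 CPM. NOL10 had 153 CPM in the knockdown TICs of CHAGO, and its other knockdown libraries lay between 77.0 and 84.4 CPM.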

How the results depend on the processing

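The sign of the median over the 42 genes was the same under every alternative run: −0.86 to −0.44 on the log2 scale in TICs over parental cells, 0.16 to 0.30 in knockdown TICs over TICs and −0.64 to −0.25 in knockdown TICs over parental cells. The counts of calls over all genes were not stable, and the cause was not tested. For the 3 comparisons in that order edgeR called 4, 2 and 5 genes. DESeq2 called 512, 11 and 400 genes, limma voom 170, 11 and 153, and limma on the mode-normalized values 43, 1 and 20. No replicate block, only the libraries of the compared states, and fits within the pair H1703 and H1299 or the pair CHAGO and CALU gave 0 genes in each, where fewer libraries or lines, or a wider spread without the line term, are part of the setting. A filter of 1 CPM in 4 libraries gave 0 in knockdown TICs over TICs and 3 in knockdown TICs over parental cells, and DESeq2 size factors 8 in knockdown TICs over parental cells. Leaving out each line gave 0 to 0, 0 to 1 and 0 to 2 genes. DESeq2 called 4 members in TICs over parental cells and 2 in knockdown TICs over parental cells, and the other settings called 0 members in every state comparison. Between lines, leaving out the knockdown state gave 2497 genes and 9 members, from fewer libraries. Leaving out the TIC state, also from fewer libraries, gave 2342 genes and 4 members. Omitting the state term gave 6275 genes and 18 members. Mode normalization moved the median of all genes to 0.11 in TICs over parental cells and library totals to −0.11 in knockdown TICs over parental cells.

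Over all 42 genes, the number above 0 in TICs over parental cells was 0 in the reported fit and 3 without H1299, 2 without the replicate block, 2 within CHAGO and CALU, 1 without CALU and 1 within H1703 and H1299. In knockdown TICs over parental cells it was 5, against 17 without H1299, 15 within CHAGO and CALU and 1 to 8 under the other settings. The sign changes below cover only the genes given with values in every library, none of them called in the comparison concerned. In TICs over parental cells these were GTPBP4 at 0.12 without the replicate block and POLR1B at 0.11 within CHAGO and CALU. In knockdown TICs over TICs, POLR1E was 0.015 and NOP2 −0.0027 without the block, POLR1E 0.31 and NOP2 −0.40 within H1703 and H1299, and POLR1A −0.023 and GTPBP4 0.012 within CHAGO and CALU. In knockdown TICs over parental cells, WDR75 was −0.033 with library totals, WDR43 0.047 and GTPBP4 0.11 without the block, POLR1A 0.26 and WDR75 −0.15 within H1703 and H1299, and WDR43 0.10 within CHAGO and CALU. Leaving out each line moved knockdown TICs over TICs between −0.13 and 0.036 for GTPBP4, −0.072 and 0.36 for NOP2 and −0.30 and 0.13 for POLR1E. Over parental cells the same step moved knockdown TICs between −0.51 and 0.28 for WDR43, −0.63 and 0.021 for GTPBP4, −0.052 and 0.17 for WDR75 (−0.017 without CALU) and −0.26 and 0.16 for POLR1A.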
